A study of Homo sapiens with 6 samples.

Results

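The genes described here are 39 genes of glucose uptake and use, out of 58735 genes in the count table. They were listed by symbol from what their products do (glucose and lactate transport, glycolysis, control of pyruvate entry into mitochondria, the pentose phosphate pathway, and gluconeogenic and glycogen enzymes). No measured value was part of that rule, but the genes were chosen with earlier results of these data known. Of the 39 genes, 36 had enough reads to be tested, and SLC2A3, PDK4 and FBP1 did not. RNA-Seq was performed on BT549 cells, a long-established line from a basal-like breast cancer, with 3 libraries from cells treated with DMSO (replicates A, B and C) and 3 from cells treated with AS1842856 (replicates A, B and C). AS1842856 is a small-molecule inhibitor of FOXO1, a forkhead transcription factor, and is described in the study as blocking FOXO1's direct binding to DNA. The study proposes that the compound modulates FOXO1 rather than only inhibiting it. All 6 cultures were plated at 100000 cells and treated for 48 h. The sample labels give a dose of 200 nM, the study's methods give a higher one, and which was used was not resolved here. Every sample came from the same unmodified cell line with 1 inhibitor at 1 time point, and libraries with FOXO1 itself removed were not analysed here.

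Glycolysis turns glucose into pyruvate. Glucose enters through transporters of the SLC2A family, is trapped by hexokinase and committed by phosphofructokinase, and the pyruvate made at the end is either reduced to lactate by lactate dehydrogenase and exported by SLC16A transporters or oxidized in mitochondria by the pyruvate dehydrogenase complex. Many of the steps have several isozymes encoded by different genes, and tumor cells are known for a high rate of glucose uptake and lactate release. In liver, FOXO1 is known as an activator of gluconeogenic genes.

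Promoter sequences were matched for 35 of the 39 genes in the RefSeq table (GRCh38.p14), which gives 250 bases before and 50 bases after each gene's RefSeq start. That start can lie inside the gene as GENCODE 29 annotates it: the PGK1 window begins at chrX:78103998 and the annotated gene at 77910739. SLC2A3, PFKFB2, SLC16A1 and PDP1 had no entry. In 29 of the 35 windows some of the 250 upstream bases, and in 10 all of them, lie in exons that GENCODE 29 annotates for any gene on either strand, so not every window is free of transcribed sequence. The forkhead motif GTAAACA, searched on both strands, was in 0 of the 35 windows and in 3.41% of 27305 windows of all genes. The core of the hypoxia response element, ACGTG or GCGTG on either strand, was in 23 of 35 windows (65.7%) and in 48.4% of all windows. By the calls given further on, it was in 10 of 14 genes that fell, in 5 of the 9 matched genes that rose, and in 7 of 10 that did not pass the test. The E-box CACGTG, whose letters contain ACGTG on both strands, was in 4 of 35 windows (ALDOC, GAPDH, LDHA and G6PC3) and in 7.43% of all windows. The letters alone do not show that a factor binds.

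Bases -200 to -51 before the start are shown for SLC2A6, PFKL, PFKFB3 and SLC16A3, which fell, and for PFKP, which rose, so that the subunit genes PFKL and PFKP can be read side by side. These stretches hold no base of an exon annotated by GENCODE 29. Each runs 5′ to 3′ on the strand of the gene, with hypoxia response element cores of either strand in capitals. The positions are chr9:133479150-133479299 (minus strand) for SLC2A6, chr21:44299853-44300002 (plus) for PFKL, chr10:3067770-3067919 (plus) for PFKP, chr10:6144721-6144870 (plus) for PFKFB3 and chr17:82228235-82228384 (plus) for SLC16A3.
SLC2A6: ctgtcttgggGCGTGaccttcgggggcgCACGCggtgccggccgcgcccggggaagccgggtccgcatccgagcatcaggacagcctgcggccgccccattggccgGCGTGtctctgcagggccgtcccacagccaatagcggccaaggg
PFKL: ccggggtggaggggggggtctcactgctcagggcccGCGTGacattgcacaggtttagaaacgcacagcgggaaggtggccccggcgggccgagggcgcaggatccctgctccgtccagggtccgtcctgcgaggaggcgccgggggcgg
PFKP: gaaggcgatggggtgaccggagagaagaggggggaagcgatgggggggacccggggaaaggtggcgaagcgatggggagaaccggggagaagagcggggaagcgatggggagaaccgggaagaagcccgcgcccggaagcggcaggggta
PFKFB3: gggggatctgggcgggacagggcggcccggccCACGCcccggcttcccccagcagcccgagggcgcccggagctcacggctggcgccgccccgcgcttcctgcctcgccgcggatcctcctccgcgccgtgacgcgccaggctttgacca
SLC16A3: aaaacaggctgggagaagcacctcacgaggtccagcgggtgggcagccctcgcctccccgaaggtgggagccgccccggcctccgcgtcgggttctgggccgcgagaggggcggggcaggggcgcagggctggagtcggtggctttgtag
In these stretches SLC2A6 holds 3 cores, PFKL and PFKFB3 hold 1 each, and PFKP and SLC16A3 hold 0. The genes that fell therefore include stretches with and without the core.

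The 6 libraries held between 15289500 and 22981832 counts on genes, and replicates of a group differed by more than counting noise (chi-square over degrees of freedom from 2.36 to 3.27). The study calls them biological replicates. Levels of 1 gene across libraries are given as CPM, counts scaled to a common library size by TMM, as mean ± SD with n = 3 per group. Levels of different genes are compared by the deposited FPKM, which divides by gene length. That length was close to all annotated exon bases of the gene, which can exceed the length of the transcripts made. FPKM ratios, shares and sums across genes depend on that length. A gene was called higher or lower when edgeR's quasi-likelihood test over 14338 genes gave an adjusted p under 0.05, and each log2 fold change is AS1842856 over DMSO with its standard error (SE). VIM, CD44, FN1 and SPARC, markers of a mesenchymal basal-like line, summed to between 3530 and 3920 CPM in every library, and ESR1, PGR, EPCAM and CDH1 together to at most 0.538 CPM. Within the first sum FN1 rose (log2 fold change 1.13), while VIM, CD44 and SPARC fell (-0.34, -0.45 and -0.47). Markers of other cell types summed to 0.807 to 1.69 CPM in DMSO and 2.70 to 3.59 CPM with AS1842856, with CD3E and MS4A1 at 0 in all 6 libraries. Nearly all of that sum was PTPRC, at 1.15 CPM in DMSO and 3.16 CPM with AS1842856, and its part in the results was not tested.

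The glucose metabolism genes did not move as a block when BT549 cells were treated with AS1842856. Of the 36 tested, 26 were called (72.2%), against 56.0% of all genes tested. A rise was called in 12 of the 36, against 27.6% of all genes tested, and a fall in 14 of the 36, against 28.4%. The median log2 fold change of the 36 was -0.04, and that of all genes tested was 0.003. The median size of the change regardless of sign was 0.26 for both. The 3 libraries of each group did not overlap in 26 of the 36 genes, against 59.9% of all genes tested. A called log2 fold change of at least 1 in size was reached by 5 of the 36 genes, against 10.6% of all genes tested. Of these 5, SLC2A1, SLC2A6, ALDOC and SLC16A3 fell and PDP1 rose. The libraries come from whole cultures, so a smaller share of cells that express a gene and less of its RNA per cell cannot be told apart.

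**Figure D1:**
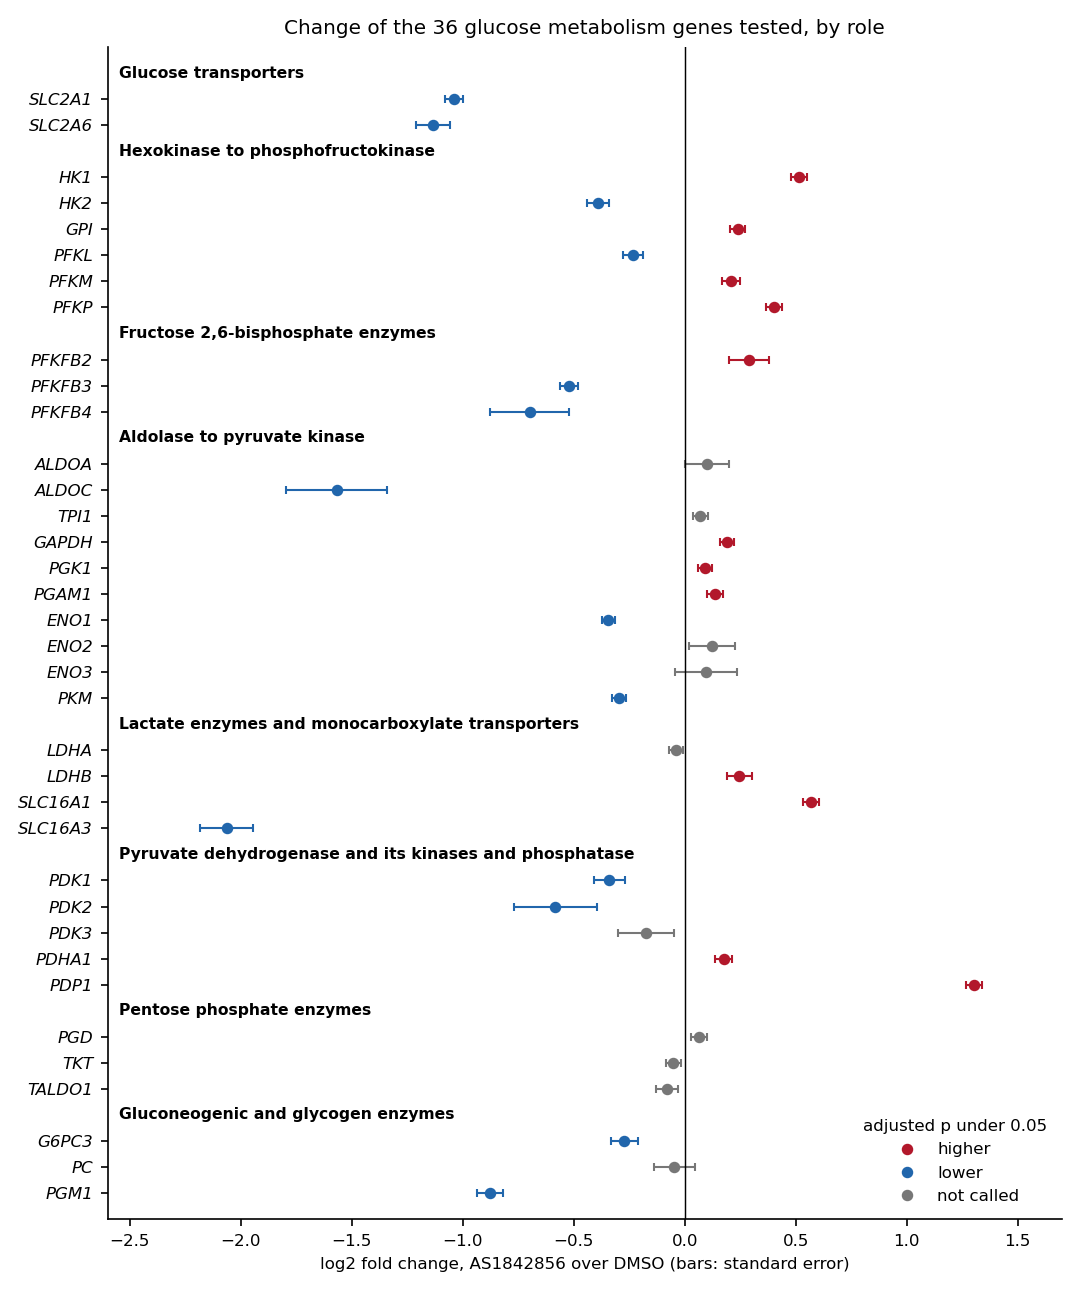
Log2 fold change of AS1842856 over DMSO for the 36 genes tested, grouped by role on the vertical axis, with bars for the standard error and colors for the call. Points lie on both sides of 0 in most roles, from SLC16A3 at -2.06 to PDP1 at 1.30, and the 3 pentose phosphate genes lie close to 0.

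Of the 3 glucose transporter genes among the 39, SLC2A1 and SLC2A6 fell and SLC2A3 could not be tested. SLC2A1 (ENSG00000117394; GRCh38 chr1:42925375-42959176, minus strand) encodes GLUT1, the main basal glucose transporter of most cultured cells. It was at 231, 219 and 218 CPM in the DMSO libraries and at 109, 105 and 112 CPM in the AS1842856 libraries. Every treated library was below every DMSO library, and the mean went from 223 ± 7.34 to 109 ± 3.705 CPM (log2 fold change -1.04, SE 0.04, adjusted p = 2.65e-70). SLC2A6 (ENSG00000160326; chr9:133471095-133479137, minus strand), the first gene of the promoter sequences above, encodes a transporter of the same family. Its level fell from 39.8 ± 3.875 to 18.1 ± 1.23 CPM, with no overlap (log2 fold change -1.13, SE 0.08, adjusted p = 2.48e-34). SLC2A3, which encodes the high-affinity transporter GLUT3, had 34, 6 and 6 counts in DMSO and 2, 5 and 3 with AS1842856 and was too low to be tested. Most of its DMSO counts came from replicate A, at 1.55 CPM, and the other DMSO libraries were at 0.391 and 0.323 CPM against 0.12, 0.219 and 0.168 CPM in the treated libraries. When low genes were kept, SLC2A3 was called lower by edgeR (adjusted p = 0.0021) and by DESeq2 (adjusted p = 0.0317), and not by limma on log2(FPKM + 1) (adjusted p = 0.285). The summed FPKM of the 3 transporters was 58.1 ± 2.64 in DMSO and 28.0 ± 0.785 with AS1842856, 51.9% less, while SLC2A1 made up 80.6% and 81.7% of that sum. SLC2A8, a gene outside the 39 that rose and is described further on, encodes a mainly intracellular transporter. It narrows this difference: with it the sum was 60.5 ± 2.59 in DMSO and 48.2 ± 1.69 with AS1842856, 20.3% less. Neither the sum of the 3 transporters nor the wider sums separate transporters of the plasma membrane from those inside the cell. Over all 8 SLC2A genes listed, the sum was 19.7% less.

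All 6 genes from hexokinase to phosphofructokinase were called, in a fit that called 56.0% of all genes tested, and isozymes of both steps moved apart. HK1 encodes the hexokinase found in most tissues, and it was at 234, 239 and 235 CPM in DMSO and at 341, 341 and 331 CPM with AS1842856. This was a rise from 236 ± 2.53 to 337.5 ± 5.48 CPM with no overlap (log2 fold change 0.52, SE 0.04, adjusted p = 7.33e-33). HK2, the inducible hexokinase of muscle and many tumors, went the other way, from 83.2, 77.0 and 79.4 CPM in DMSO to 61.9, 60.5 and 60.7 CPM (log2 fold change -0.39, SE 0.05, adjusted p = 2.3e-12). In FPKM, HK1 was 2.85 ± 0.14 times HK2 in DMSO and 5.33 ± 0.0851 times HK2 with AS1842856. HK1's share of the pair was 73.0%, 74.9% and 74.0% in the DMSO libraries and 84.1%, 84.4% and 84.0% in the treated ones. The summed FPKM of the pair was 50.4 ± 0.26 in DMSO and 63.3 ± 0.997 with AS1842856, 25.7% more, so the level of hexokinase transcripts was higher although 1 of the isozymes fell. GPI, which interconverts glucose 6-phosphate and fructose 6-phosphate, rose from 378 ± 11.7 to 446 ± 6.50 CPM (log2 fold change 0.24, adjusted p = 2.78e-10).

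Phosphofructokinase is built from subunits of 3 genes. PFKP, the platelet-type subunit, was the most abundant per length and rose from 216, 208 and 207 CPM to 272, 278 and 284 CPM (log2 fold change 0.40, SE 0.04, adjusted p = 1.18e-21). PFKL, the liver-type subunit, fell from 116 ± 2.43 to 98.3 ± 2.55 CPM (log2 fold change -0.23, SE 0.04, adjusted p = 9.09e-07). Both pairs of groups were free of overlap, and in FPKM the ratio of PFKP to PFKL was 3.36 ± 0.0701 in DMSO and 5.22 ± 0.0304 with AS1842856. PFKM, the muscle-type subunit, rose from 127 ± 2.05 to 147 ± 1.07 CPM (log2 fold change 0.21, adjusted p = 2.24e-06). PFKM shares 628 exon bases with SENP1 on the opposite strand, and SENP1 had 38.1% as many counts and was called lower. PFKP took 59.0% of the summed FPKM of the subunits in DMSO and 64.9% with AS1842856, and PFKL took 17.6% and 12.4%. The summed FPKM was 73.3 ± 1.40 in DMSO and 88.0 ± 1.41 with AS1842856, 20.0% more.

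**Figure D2:**
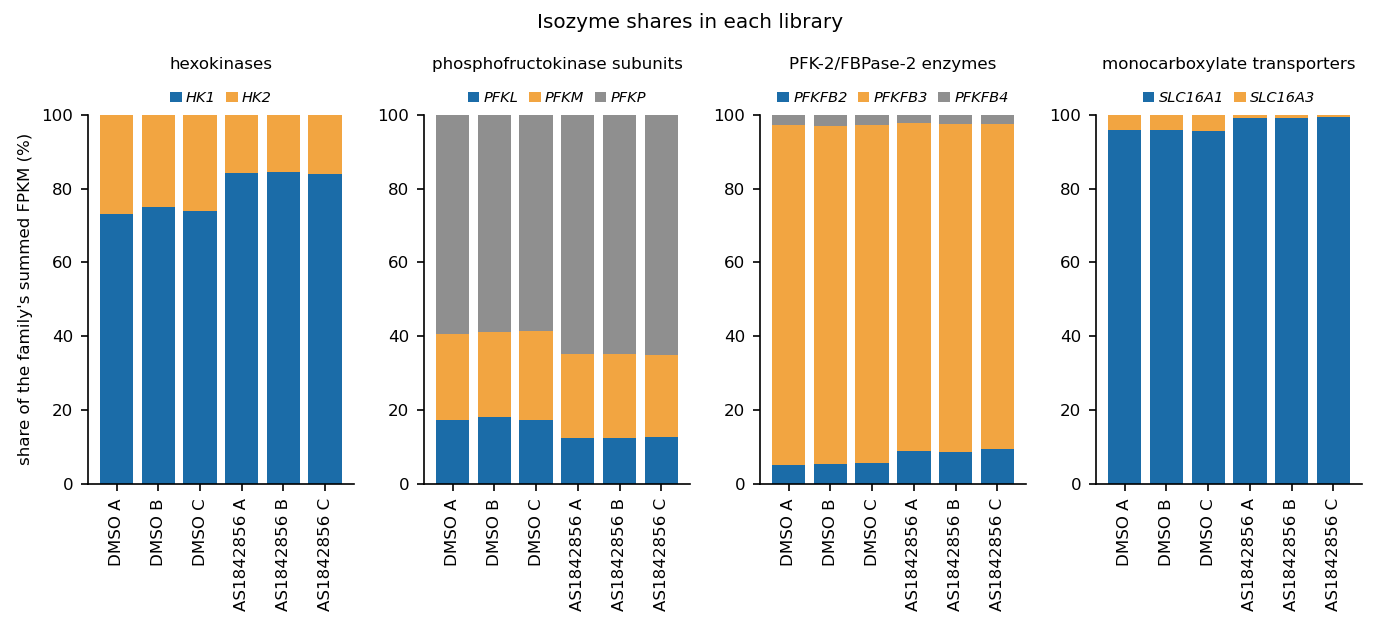
Share of each isozyme in the summed FPKM of its family, in percent, for each of the 6 libraries and for 4 families (hexokinases, phosphofructokinase subunits, PFKFB enzymes and the SLC16A transporters). In these 4 families the 3 bars of a group are nearly alike, and between groups HK1 goes from 74.0% to 84.2%, PFKP from 59.0% to 64.9%, PFKFB2 from 5.31% to 8.98% and SLC16A1 from 95.8% to 99.3%.

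Fructose 2,6-bisphosphate is the main allosteric activator of phosphofructokinase, and the PFKFB genes encode the enzymes that make and break it. PFKFB3, the isozyme with the highest kinase activity relative to its phosphatase activity, was at 179, 177 and 167 CPM in DMSO and at 121, 123 and 120 CPM with AS1842856. It fell without overlap (log2 fold change -0.52, SE 0.04, adjusted p = 2.99e-28). PFKFB4 fell as well, at a far lower level, from 5.41 ± 0.448 to 3.30 ± 0.331 CPM (log2 fold change -0.70, SE 0.18, adjusted p = 0.000329). PFKFB2, the isozyme known from heart, rose from 16.8 ± 0.73 to 20.5 ± 0.912 CPM (log2 fold change 0.29, SE 0.09, adjusted p = 0.00375). PFKFB2 shares 315 exon bases with YOD1 on the opposite strand, which had 197% as many counts and also rose (log2 fold change 0.33), and its call was lost in limma on log2(FPKM + 1) without a filter (adjusted p = 0.0918). PFKFB3 made up 91.8% of the summed FPKM of the family in DMSO and 88.6% with AS1842856, and the sum was 27.8% less after treatment. Phosphofructokinase subunits and the enzymes of their activator therefore differed in the direction of their summed levels.

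From aldolase to pyruvate kinase, 3 genes rose, 3 fell and 4 did not pass the test. The share called was 60.0%, against 56.0% of all genes tested, and apart from ALDOC no called change exceeded 0.34 in size. ENO1 (ENSG00000074800; chr1:8861000-8879250, minus strand) encodes the common enolase and had the highest FPKM of the 39 genes in DMSO. It was at 5537, 5349 and 5458 CPM in DMSO and at 4281, 4295 and 4303 CPM with AS1842856. The groups did not overlap (log2 fold change -0.34, SE 0.03, adjusted p = 3.45e-23). PKM, the pyruvate kinase of most tissues outside liver and red cells, fell from 1965 ± 23.35 to 1601 ± 24.6 CPM (log2 fold change -0.30, SE 0.03, adjusted p = 3.43e-17). GAPDH, the glyceraldehyde 3-phosphate dehydrogenase that many laboratories use as a reference, rose from 2089 ± 28.7 to 2383 ± 48.8 CPM (log2 fold change 0.19, SE 0.03, adjusted p = 1.84e-08). In FPKM, ENO1 stood at 1.50, 1.43 and 1.50 times GAPDH in the DMSO libraries and at 1.03, 1.02 and 0.998 times GAPDH in the treated libraries. By FPKM these neighbours in the order of levels came to lie close together. In CPM, which is not divided by length, ENO1 stayed above GAPDH, at 4293 and 2383 with AS1842856. PGAM1, a phosphoglycerate mutase, rose from 414 ± 7.56 to 454 ± 12.25 CPM (log2 fold change 0.14, adjusted p = 0.000304).

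PGK1, the phosphoglycerate kinase that makes the first ATP of the pathway, rose by 0.09 on the log2 scale, from 644 ± 3.85 to 686 ± 14.6 CPM (SE 0.03, adjusted p = 0.0129). That call was lost without DMSO replicate C (adjusted p = 0.0552), without AS1842856 replicate B (adjusted p = 0.116) and without the filter on low counts (adjusted p = 0.0803). TPI1, the triose phosphate isomerase, was at 781 ± 11.5 CPM in DMSO and 820 ± 32.3 CPM with AS1842856 and did not pass the test (log2 fold change 0.07, adjusted p = 0.0631). TPI1 passed without DMSO replicate A (adjusted p = 0.0472) and without AS1842856 replicate A (adjusted p = 0.0231). ALDOC, the aldolase best known from brain, fell from 4.83, 4.36 and 4.52 CPM to 1.74, 1.31 and 1.63 CPM (log2 fold change -1.57, SE 0.23, adjusted p = 2.26e-10). ALDOA, the aldolase of muscle and most cultured cells, was listed at only 14.9 ± 0.533 and 15.95 ± 0.889 CPM and did not pass the test (adjusted p = 0.395). Its level is uncertain, since 42.3% of its exon bases are shared on the same strand with the annotated gene AC093512.2, which held 21.1% as many counts, and how reads that fit both genes were counted is not given. ENO2, the neuronal enolase, was at 13.5 and 14.7 CPM (log2 fold change 0.12, adjusted p = 0.32). ENO3, the muscle enolase, was at 6.82 and 7.21 CPM (log2 fold change 0.10, adjusted p = 0.58) and shares 111 exon bases with PFN1 on the opposite strand, which had 19400% as many counts.

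**Figure D3:**
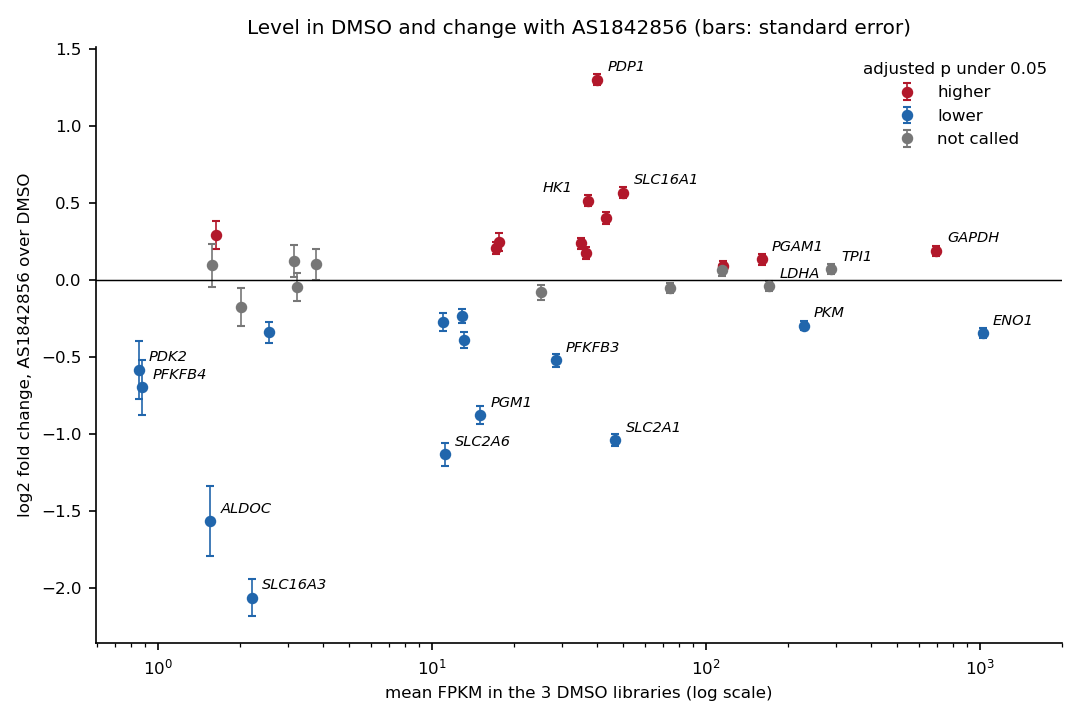
Mean FPKM in the 3 DMSO libraries on a log scale against the log2 fold change of AS1842856 over DMSO for the 36 genes tested, with bars for the standard error and colors for the call. The 8 genes at an FPKM of 100 or more lie between -0.34 and 0.19, and the genes with the largest changes lie below that level.

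By level, the 8 genes at an FPKM of at least 100 in DMSO (ENO1, GAPDH, TPI1, PKM, LDHA, PGAM1, PGK1 and PGD) had log2 fold changes between -0.34 and 0.19. The 17 genes from 10 to under 100 ranged from -1.13 to 1.30, and the 11 genes under 10 ranged from -2.06 to 0.29. The precision differs along this axis, since low genes have larger standard errors. The 39 genes together held 1.60% to 1.62% of all counts in DMSO and 1.53% to 1.55% with AS1842856. ENO1 alone accounted for 0.537% to 0.551% in DMSO and for 0.427% to 0.429% with AS1842856. Without ENO1 the order of the groups turned, with 1.06% to 1.07% in DMSO and 1.10% to 1.12% with AS1842856, so the lower sum rested on that gene. Pseudogenes carrying the name of 1 of the 39 genes were annotated for 14 of them and held at most 0.731% as many counts as the gene (LDHA).

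At the lactate step the dehydrogenase genes moved little and the transporter genes moved in opposite directions. LDHA, the subunit that favors lactate formation, was at 1054, 1079 and 1067 CPM in DMSO and at 1056, 1024 and 1033 CPM with AS1842856. The groups overlapped and the difference did not pass the test (log2 fold change -0.04, SE 0.03, adjusted p = 0.304). LDHB, the subunit typical of oxidative tissues, was called higher, from 52.9 ± 7.04 to 62.4 ± 2.74 CPM (log2 fold change 0.25, SE 0.06, adjusted p = 0.000132). Its groups overlapped, since DMSO replicate B at 60.75 CPM lay above AS1842856 replicate B at 59.3 CPM, and the call was lost in 3 limma fits on FPKM (adjusted p from 0.0559 to 0.12). LDHB shares 33.4% of its exon bases on the same strand with the annotated gene AC010197.2, which held 0 counts in every library. How reads that fit both genes were counted is not given, so the level of LDHB is uncertain. The summed FPKM of the subunits was 188 ± 4.03 in DMSO and 187 ± 3.34 with AS1842856.

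SLC16A1 (ENSG00000155380; chr1:112911847-112957013, minus strand) encodes MCT1, a carrier of lactate and pyruvate across the plasma membrane. It was at 266, 263 and 275 CPM in DMSO and at 388, 399 and 404 CPM with AS1842856, and every treated library lay above every DMSO library (log2 fold change 0.57, SE 0.04, adjusted p = 2.06e-38). SLC16A3 (ENSG00000141526; chr17:82228397-82261129, plus strand) encodes MCT4, a lactate exporter known from cells with a high glycolytic rate. Its level fell from 19.5, 19.5 and 21.0 CPM to 5.04, 5.52 and 3.645 CPM, and was 4.18-fold higher in DMSO (log2 fold change -2.06, SE 0.12, adjusted p = 1.22e-42). This was the largest decrease among the 36 genes tested. SLC16A3 shares 482 exon bases with CSNK1D on the opposite strand, which had 968% as many counts and did not pass the test (log2 fold change 0.06). In FPKM, SLC16A1 was 22.7 ± 0.449 times SLC16A3 in DMSO and 147 ± 35.6 times with AS1842856, and the sum of both was 43.0% more after treatment since SLC16A1 made up between 95.7% and 99.5% of it in each library.

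**Figure D4:**
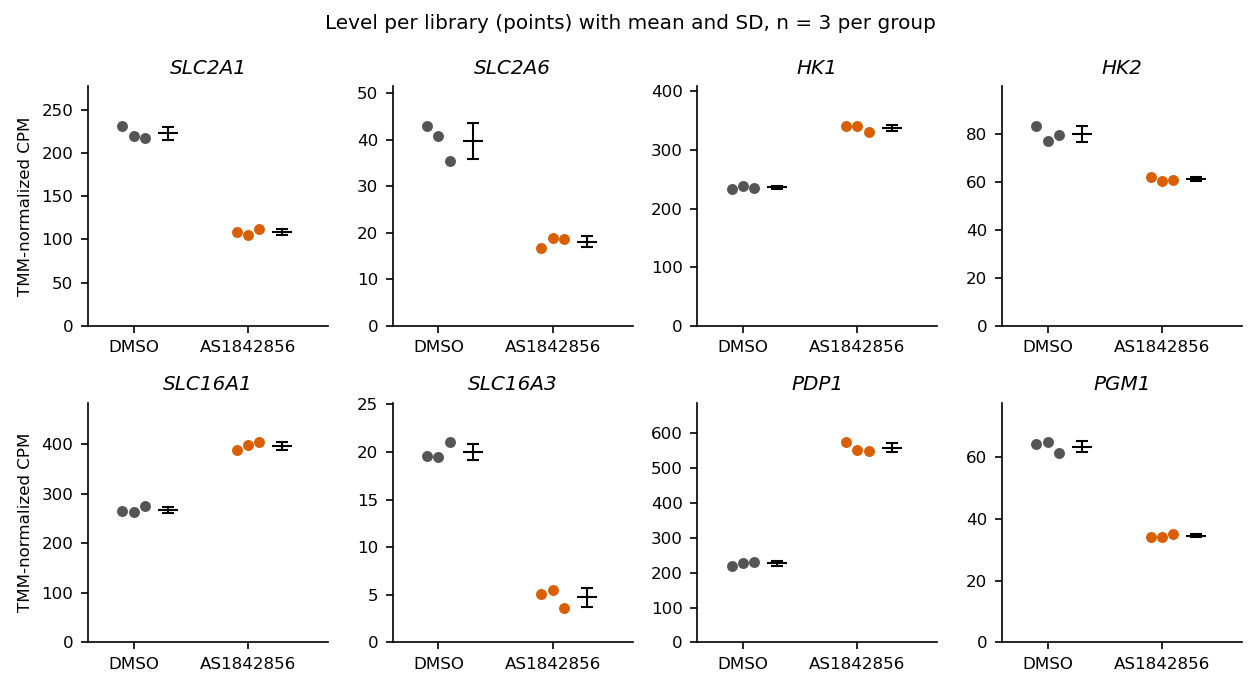
TMM-normalized CPM of 8 genes in each of the 6 libraries (points), with the mean and SD of each group of 3 beside them and each vertical axis starting at 0. The groups are apart in every panel: SLC2A1, SLC2A6, HK2, SLC16A3 and PGM1 are lower with AS1842856, and HK1, SLC16A1 and PDP1 are higher.

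Among the genes that control pyruvate oxidation, PDP1 and PDHA1 rose, PDK1 and PDK2 fell, PDK3 did not pass the test and PDK4 could not be tested. The calls were 4 of 5 tested (80.0%), against 56.0% of all genes tested. The pyruvate dehydrogenase complex is switched off when PDK kinases phosphorylate its E1 alpha subunit and switched on when PDP phosphatases remove the phosphate. PDP1, a catalytic subunit of the phosphatase, was at 218, 229 and 232 CPM in DMSO and at 573, 553 and 548 CPM with AS1842856. The mean rose 2.47-fold (log2 fold change 1.30, SE 0.04, adjusted p = 5.28e-99), the only increase of at least 1 on the log2 scale among the 36 genes. PDHA1, the E1 alpha subunit itself, rose from 165 ± 6.0 to 186.5 ± 4.29 CPM (log2 fold change 0.18, SE 0.04, adjusted p = 3.24e-05). PDK1, a kinase known to be induced by hypoxia, fell from 38.2 ± 1.63 to 30.2 ± 2.30 CPM (log2 fold change -0.34, SE 0.07, adjusted p = 5.44e-06). PDK2, a widely expressed kinase, was called lower, at 4.70 ± 0.585 and 3.12 ± 0.289 CPM (log2 fold change -0.58, SE 0.19, adjusted p = 0.00494). That call was lost in limma on FPKM (adjusted p from 0.0527 to 0.0656), and 38.6% of the exon bases of PDK2 are shared with SAMD14 on the opposite strand, which had 25.8% as many counts.

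PDK3, another kinase of the complex, was at 10.1 ± 1.24 CPM in DMSO and 8.82 ± 1.91 CPM with AS1842856 and did not pass the test (log2 fold change -0.175, adjusted p = 0.234). It passed without AS1842856 replicate C (adjusted p = 0.0348). PDK4, the kinase induced by fasting, had 3, 1 and 1 counts in DMSO and 3, 0 and 3 with AS1842856, all at or under a floor of 3 counts, so a difference was not detectable at this depth. The summed FPKM of the kinases was 5.44 ± 0.359 in DMSO and 4.38 ± 0.214 with AS1842856, 19.5% less, without overlap. In FPKM, PDP1 was 15.8 ± 0.355 times PDK1 in DMSO and 49.2 ± 2.47 times PDK1 with AS1842856. In CPM, which is not divided by length, PDP1 was at 226 in DMSO and 558 with AS1842856, and PDK1 at 38.2 and 30.2.

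The 3 pentose phosphate genes did not pass the test. PGD, which makes NADPH in the oxidative branch, was at 342 ± 7.40 CPM in DMSO and 358 ± 3.79 CPM with AS1842856 (log2 fold change 0.06, SE 0.04, adjusted p = 0.111). TKT, the transketolase of the non-oxidative branch, was at 712 ± 29.15 and 687 ± 28.6 CPM (log2 fold change -0.05, SE 0.03, adjusted p = 0.199). TALDO1, the transaldolase of the same branch, was at 75.6 ± 4.32 and 71.45 ± 1.62 CPM (log2 fold change -0.08, SE 0.05, adjusted p = 0.172). The groups of TKT and TALDO1 overlapped and those of PGD did not.

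Of the gluconeogenic and glycogen enzymes, PGM1 and G6PC3 fell, which is 2 of 3 tested (66.7%), against 56.0% of all genes tested. PGM1, the phosphoglucomutase that links glucose 6-phosphate to glycogen, was at 64.4, 64.85 and 61.35 CPM in DMSO and at 34.3, 34.25 and 35.2 CPM with AS1842856. The treated libraries lay far below the others (log2 fold change -0.88, SE 0.06, adjusted p = 8.85e-35). PGM1 shares 197 exon bases with ITGB3BP on the opposite strand, which had 71.2% as many counts and was not called (log2 fold change -0.05). G6PC3, the glucose 6-phosphatase expressed in most tissues, fell from 50.4 ± 1.77 to 41.8 ± 2.38 CPM (log2 fold change -0.27, SE 0.06, adjusted p = 2.98e-05). PC, the pyruvate carboxylase, was at 19.2 ± 2.77 and 18.8 ± 1.19 CPM and did not pass the test (adjusted p = 0.692), and 621 of its exon bases are shared with LRFN4 on the opposite strand. FBP1, the fructose bisphosphatase of gluconeogenesis, had 0, 4 and 1 counts in DMSO and 0 in every treated library, which allows levels of up to 0.131 to 0.180 CPM there. FBP1 shares 283 exon bases with PCAT7 on the opposite strand, which had 3140% as many counts and was called lower (log2 fold change -2.854).

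Beside the 39 genes, 69 other genes of the same pathways were examined, of which 43 could be tested. Of these, 26 were called (60.5%, against 56.0% of all genes tested): 15 rose and 11 fell, and the median log2 fold change of the 43 was 0.05. SLC2A8, which encodes the mainly intracellular glucose transporter GLUT8, was at 9.06, 9.38 and 9.47 CPM in DMSO and at 77.65, 78.2 and 84.3 CPM with AS1842856. It rose while SLC2A1 and SLC2A6 fell (log2 fold change 3.11, SE 0.07, adjusted p = 1.58e-113). In FPKM, SLC2A8 was at 2.35 in DMSO and 20.25 with AS1842856, beside 46.8 and 22.8 for SLC2A1, so the order of the genes was kept while the gap narrowed. EMB, a chaperone of monocarboxylate transporters, rose from 68.8 ± 2.63 to 168.5 ± 9.30 CPM (log2 fold change 1.29, SE 0.04, adjusted p = 6.69e-80). GBE1, the glycogen branching enzyme, fell from 84.0 ± 5.41 to 42.0 ± 2.885 CPM (log2 fold change -1.01, SE 0.06, adjusted p = 1.34e-46), as PGM1 did. The other gluconeogenic and glycogen genes as a list did not fall together. Of 11 tested, 7 were called (63.6%, against 56.0% of all genes tested): 4 rose and 3 fell. Their median log2 fold change was 0.046.

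Some of these neighbours lie directly beside the 39 genes in the pathway, and the following were chosen after their values were seen. H6PD, a pentose phosphate enzyme of the endoplasmic reticulum, fell (log2 fold change -0.86, SE 0.08, adjusted p = 1.66e-22). Of the other subunits of the pyruvate dehydrogenase complex, DLAT rose by 0.49 and PDHX by 0.27 on the log2 scale, while PDHB fell by 0.47 and DLD by 0.13. PDP2, the other catalytic subunit of the phosphatase beside PDP1, and PDPR, its regulatory subunit, did not pass the test (log2 fold changes 0.04 and -0.11, adjusted p = 0.735 and 0.168). MPC1, a subunit of the mitochondrial pyruvate carrier, rose by 0.44, and MPC2, its partner, did not pass the test (log2 fold change 0.08, adjusted p = 0.313). PHGDH and PSAT1, which divert a glycolytic intermediate to serine, rose by 0.55 and 0.24 on the log2 scale. PSPH, from the same list of branches out of glycolysis, did not pass the test (log2 fold change 0.125, adjusted p = 0.0855). Of the 7 genes tested on that list, 4 were called (57.1%, against 56.0% of all genes tested): 2 rose and 2 fell. BSG, the chaperone that carries SLC16A1 and SLC16A3 to the membrane, was called higher by 0.08 on the log2 scale with overlapping groups (adjusted p = 0.0295). The BSG call was lost without DMSO replicate B (adjusted p = 0.19), DMSO replicate C (0.244), AS1842856 replicate B (0.0602) or AS1842856 replicate C (0.165), and in DESeq2 (0.0567). It was also lost without the filter on low counts (0.145) and with the replicate letter as a block (0.0565). The limma fits on FPKM did not call BSG either (adjusted p from 0.129 to 0.229).

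Several of the 39 genes are known targets of hypoxia-inducible factors, so 11 other hypoxia markers were read from the same fit. Of 9 tested, 8 were called (88.9%, against 56.0% of all genes tested): 5 rose and 3 fell. The median log2 fold change of the 9 was 0.175. The values ranged from -0.731 to 1.506, and only CA12 was called with a size of at least 1. CA12, a carbonic anhydrase, rose from 8.80 ± 1.34 to 24.7 ± 0.866 CPM (log2 fold change 1.51, SE 0.10, adjusted p = 5.65e-35). Among 6 metabolic genes linked to FOXO factors, 2 could be tested: IRS2, an adaptor of the insulin receptor, rose (log2 fold change 1.03, SE 0.13, adjusted p = 5.02e-13), and INSR, the insulin receptor, fell (log2 fold change -0.78, SE 0.11, adjusted p = 1.29e-10). PDK4, one of the 39, belongs to the same list and was too low to test.

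GAPDH and PGK1 also serve as laboratory references. Of 12 genes commonly used so, 7 were called (58.3%, against 56.0% of all genes tested). Of these, 5 rose and 2 fell, and the other 5 did not pass the test. ACTB, beta-actin, fell by 0.40 on the log2 scale (SE 0.03, adjusted p = 1.95e-30), and TUBB, a beta-tubulin, rose by 0.15 (SE 0.03, adjusted p = 1.39e-05). GAPDH rose by 0.19, so log2 fold changes taken relative to GAPDH would all be lower by that amount than those given here.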

How the data were processed

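The authors mapped the reads with STAR according to the study's methods, while the submitters' processing notes name CASAVA, Bowtie 0.12.2 and GRCh38. The counting tool, annotation and use of strand are not given in the sources used here. The deposited counts are unnormalized reads per gene, and the deposited FPKM values were divided by gene length and library size by the authors. All 58735 identifiers matched GENCODE 29, which gave symbols and positions. Counts were filtered with filterByExpr (minimum count 10, minimum total 15), scaled by TMM (factors 0.995 to 1.01) and tested with edgeR 4.0.16 in R 4.3.3 by glmQLFit (robust) and glmQLFTest with Benjamini-Hochberg adjustment at 0.05. The SE is the log2 fold change divided by the square root of F. The common biological coefficient of variation was 0.0374, and a count of 0 allows 0.131 to 0.195 CPM, which covers counting error only. The tests were also run on simulated counts, drawn with means and dispersions taken from the main fit. Alternatives used DESeq2 1.42.0 and limma 3.58.1.

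The genes and lists were chosen with earlier results of these data known. All 39 genes were named. Of the other lists, called genes with a log2 fold change of at least 1 in size and a mean of at least 1 CPM were named, at most 10 by size, with GAPDH, PGK1, ACTB and TUBB. Shares and sums of FPKM are descriptions without a test. The result of 1 other pathway gene is not reported here.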

Additional observations from a re-analysis of the deposited data

How the results depend on the processing

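Over 15 alternatives, 526 of 540 values of the 36 genes tested kept their direction and side of the threshold, 10 lost the call, 3 gained it and 1 changed sign, and 29 genes kept both under all of them. The number of the 39 genes called lay between 23 and 27 (26 in the main test), and the number of all genes called between 6523 and 8030 (8029 in the main test). DESeq2 called 27 of the 39, among them the same 26 in the same direction and SLC2A3. Of the other pathway genes, 17 were called in limma on log2(FPKM + 1) without a filter against 26 in the main test. Leaving out each library gave 25 to 27 of the 39 genes called, and PC, not called, ranged from -0.143 to 0.065, above 0 without DMSO replicate A, against -0.046 in the main test. The share of PFKM among phosphofructokinase subunits was 0.858 percentage points lower with AS1842856 by FPKM and 0.0309 points higher by CPM. The replicate letters were not treated as pairs, since the deviations of same-lettered libraries correlated at 0.042 (A), -0.012 (B) and -0.0033 (C). With the letter as a replicate block, 7862 genes and 26 of the 39 were called. Depth limited SLC2A3, PDK4 and FBP1.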
